A study of Arabidopsis thaliana with 6 samples.

Results

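The 6 genes described here encode protein kinases known for acting on splicing factors in Arabidopsis thaliana. They are PRP4KA (AT3G25840), PRP4KB (AT1G13350), AFC1 (AT3G53570), AFC2 (AT4G24740), AFC3 (AT4G32660) and SRPK4 (AT3G53030). They were chosen by their AGI identifiers from the 33602 genes of the series, with the level, intron and 3′ end values of the same prmt5 and WT libraries already known. On the TAIR10 coordinates of the deposited tables, PRP4KA spans 9451861 to 9457554, AFC1 19861179 to 19864588 and SRPK4 19662281 to 19664505 on chromosome 3. PRP4KB spans 4572419 to 4576632 on chromosome 1, and AFC2 12754529 to 12757786 and AFC3 15756128 to 15759314 on chromosome 4. AFC3 and SRPK4 are on the plus strand and the others on the minus strand. All 6 were among the 22509 genes that passed the expression filter. The values below are therefore a description of these genes, and whether a value passed the threshold of the whole-table test says on which side of that threshold it fell.

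RNA-seq was done on prmt5 mutant plants (3 libraries) and on plants of the wild type accession Col (WT, 3 libraries). Plants of both genotypes stood for 4 days in the dark at 4 °C on medium with 0.8% agarose, then grew at 22 °C under continuous light and were harvested whole after 9 days. The labels give the tissue as a pool and do not name the prmt5 allele, and nothing in them says whether the libraries of one genotype came from separate cultures, so the p-values measure the spread between these libraries, which may be technical. PRMT5 is a protein arginine methyltransferase that methylates, among others, the Sm proteins of the spliceosome.

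Splicing factors are switched on and off by phosphorylation. PRP4 kinases, first known from fission yeast, phosphorylate proteins of the U4/U6.U5 tri-snRNP, the particle that joins the spliceosome before it becomes active. LAMMER kinases, called CLK in animals and AFC in Arabidopsis, and SR protein kinases (SRPK) phosphorylate serines in the arginine- and serine-rich domains of SR proteins, which help to define exons. In mammals the CLK genes are themselves controlled by exon skipping and intron retention.

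Total gene counts ran from 41465842 to 67300273 in prmt5 and from 38564256 to 75461631 in WT. Of the marker genes for green tissue, CAB1 lay at 9660.2 to 10370.0 CPM, the count scaled to the size of the library, in prmt5 and at 11636.2 to 17076.6 CPM in WT, and LHCB2.1 at 1140.6 to 1339.1 CPM in prmt5 and at 1698.0 to 2725.5 CPM in WT. RBCS1A was similar in both, at 13100.1 to 14936.7 CPM in prmt5 and 14436.0 to 15230.5 CPM in WT. The root gene PYK10 lay at 1817.6 to 2308.2 CPM in prmt5 and 2072.1 to 2418.8 CPM in WT, and the root hair genes EXPA7 and COBL9 at 6.12 to 10.6 CPM in prmt5 and 5.59 to 7.73 CPM in WT. The flower genes AG and AP3 and the seed genes CRA1 and OLEO1 stayed under 1 CPM in every library. The part of these tissue differences in the results below was not tested, and in such bulk samples fewer cells of a type and less RNA per cell cannot be told apart. The PRMT5 gene itself gave 34.7, 28.9 and 33.1 CPM in prmt5 and 30.2, 28.7 and 31.1 CPM in WT, where another gene overlaps it. A PRMT5 junction on chromosome 4 from 15132629 to 15132732, absent from the deposited annotation, had 11, 10 and 27 counts in prmt5 and 0 in each WT library. The PRMT5 junction from 15132629 to 15132725 had 104, 83 and 116 counts in WT and still 5, 3 and 17 in prmt5. The first of these junctions separated the libraries as labelled.

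The first comparison is of gene levels. PRP4KA, AFC1, AFC2 and AFC3 were higher in prmt5 and passed the threshold of edgeR's quasi-likelihood test, an adjusted p under 0.05 over all genes. PRP4KB and SRPK4 did not pass. Of all genes tested, 17.9% passed as higher and 15.4% as lower, and the rule that chose the kinases used this contrast. The median log2 change of the 6 genes was 0.42, beside 0.01 over all tested genes.

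AFC2, a LAMMER kinase, was the gene with the most reads per length of the 6. It had 83.5, 82.5 and 77.3 CPM in prmt5 and 50.9, 52.1 and 53.3 CPM in WT. Every prmt5 library stood above every WT library. The means were 81.1 ± 3.32 CPM in prmt5 and 52.1 ± 1.24 CPM in WT (SD, n = 3 each), a log2 change of 0.64 (SE 0.06), or 1.56-fold.

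AFC3, also a LAMMER kinase, had 54.8, 53.2 and 45.0 CPM in prmt5 and 34.3, 38.0 and 35.6 CPM in WT. The groups did not overlap, and prmt5 replicate 3 was the lowest of its group. The log2 change was 0.50 (SE 0.08). AFC3 overlaps the annotated gene AT4G32670, and no source says that strand was used in counting, so its values may hold reads of that gene.

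AFC1, the LAMMER kinase with the lowest count of the 3, had 33.6, 35.7 and 33.1 CPM in prmt5 and 24.7, 24.2 and 24.3 CPM in WT. The WT libraries lay close together and well under those of prmt5. The log2 change was 0.48 (SE 0.06), or 1.4-fold.

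PRP4KA, one of the pair of PRP4 kinases, had 94.2, 99.2 and 104.5 CPM in prmt5 and 80.0, 74.1 and 77.8 CPM in WT. The groups did not overlap, and the log2 change was 0.36 (SE 0.07). Its 3′ end lost reads in prmt5, as described below. Over its exon bins E006 to E017 alone, PRP4KA had 107.8, 114.8 and 123.2 CPM in prmt5 and 87.9, 78.2 and 85.2 CPM in WT. These bins gave a log2 change of 0.46, larger than the one over the whole gene.

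PRP4KB, the paralog of PRP4KA, had 42.5, 43.4 and 42.9 CPM in prmt5 and 38.9, 42.1 and 38.9 CPM in WT. The groups did not overlap, but the gap was small beside the spread in WT. The log2 change of 0.11 (SE 0.06) did not pass.

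SRPK4, the SR protein kinase of the set, had 12.1, 12.0 and 12.4 CPM in prmt5 and 15, 12.4 and 14 CPM in WT. The third prmt5 library and the second WT library met at the same rounded level, while the other WT libraries were higher. The log2 change was −0.18 (SE 0.09), and it passed, as lower in prmt5, in 1 alternative, without WT replicate 2 (log2 change −0.26, edgeR adjusted p = 0.0301).

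Per kilobase of exonic length, the order from high to low in prmt5 was AFC2 with 50.2 ± 2.05, AFC3 with 30.0 ± 3.09, PRP4KA with 27.7 ± 1.43, PRP4KB with 17, AFC1 with 16.1 and SRPK4 with 6.53 CPM per kb. In WT it was AFC2 with 32.2 ± 0.764, PRP4KA with 21.5 ± 0.829, AFC3 with 21.2 ± 1.1, PRP4KB with 15.8, AFC1 with 11.5 and SRPK4 with 7.39 CPM per kb. AFC3 and PRP4KA lay within their spread of each other in both genotypes, and PRP4KB and AFC1 lay close in prmt5.

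**Figure D1:**
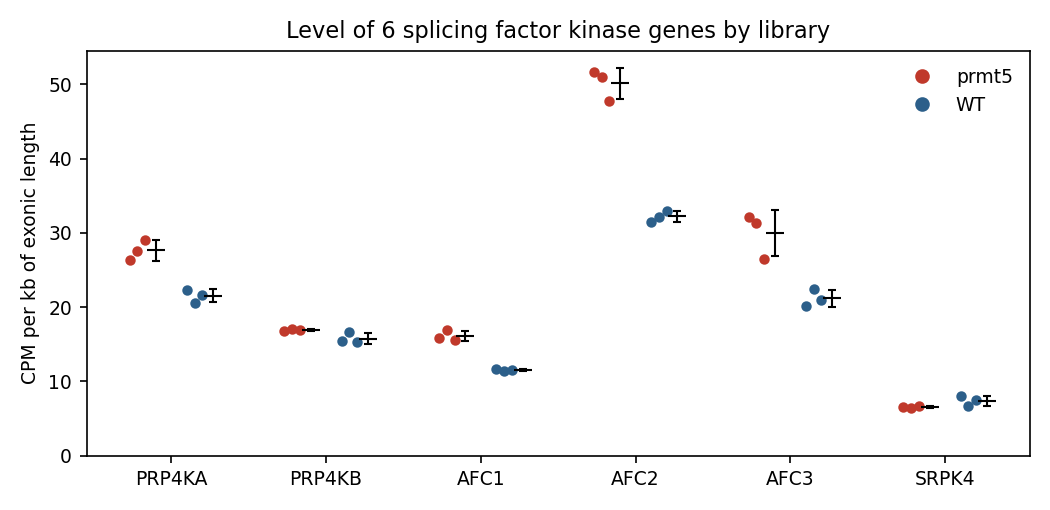
Level of the 6 kinase genes in CPM per kilobase of exonic length, with 1 point for each library, prmt5 left of WT, and the mean with its SD beside the points (n = 3 each). AFC2 has the highest level in both genotypes, and the prmt5 points of PRP4KA, AFC1, AFC2 and AFC3 lie above all their WT points.

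A difference that both PRP4 kinase genes shared lay near their start, in the second exon. In both paralogs a short second exon was included far less often in prmt5 than in WT. In both, the exon ends at a 5′ splice site (donor) with nearly the same letters. The sites are shown because they bound the exon whose use differed. Each window is on the minus strand of the TAIR10.1 assembly, 20 exon and 10 intron bases 5′ to 3′, with the GT that opens the intron in capitals.

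PRP4KA exon E016 donor, chr3:9456864-9456893: tgatggctttcgcttgatttGTaagaactg
PRP4KB unannotated donor, chr1:4575952-4575981: tgatggctttcccttgatttGTaagagctg

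The 2 windows were identical at 28 of 30 positions. Their 9 bases around the junction, tttGTaaga, scored 2.97, a score that adds up log2 odds for 3 exon and 6 intron bases. Only 3.8% of the 110931 annotated junctions scored lower, and 26 of them, or 0.0234%, had the same 9 bases. The donors of the first exons, which join either to the second or, when it is skipped, to the third exon, are shown for comparison.

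PRP4KA first exon donor, chr3:9457080-9457109: aatttgaagataataatctgGTctgttcta
PRP4KB first exon donor, chr1:4576229-4576258: aattccgggagaataatctgGTctgttcta

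These were identical at 25 of 30 positions, and their shared site ctgGTctgt scored 6.11, above 33.3% of annotated junctions. Both pairs of sites thus had the same 9 bases in the paralogs, and the exon donor had the lower score of the 2 kinds. The annotated donor of the second exon of PRP4KB, catGTatgc, scored 6.32.

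In PRP4KA the exon, E016, is 56 bases long (chromosome 3, 9456874 to 9456929). RefSeq lists 1 transcript without it that has 2808 coding bases and 1 with it that has 2022. Junction counts out of the exon were 1, 2 and 2 in prmt5 and 19, 10 and 23 in WT. Counts into it were 0 in every prmt5 library and 6, 4 and 11 in WT. Counts of the junction that skips it were 125, 99 and 190 in prmt5 and 134, 55 and 114 in WT.

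From these junctions E016 was included at 0.398%, 1.0% and 0.524% in prmt5 and at 8.53%, 11.3% and 13% in WT. Every prmt5 library was at or under 1.0% and every WT library above 8%. The junction out of E016 fell by 3.52 on the log2 scale (SE 0.53) in the test of junction choice. The bin E016 had 1, 2 and 4 counts in prmt5 and 29, 14 and 35 in WT, a usage change of −3.64 (SE 0.39). The bin passed, but not in every alternative, with an edgeR adjusted p of up to 0.111. The intron before it, of 160 bases, fell too, with 0, 1 and 3 counts in prmt5 and 17, 2 and 31 in WT (log2 change −3.69, SE 0.67).

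In PRP4KB the annotated second exon, E010, has 81 bases (chromosome 1, 4575915 to 4575995). The reads of WT plants mostly left it earlier, at the unannotated donor at 4575962. A further unannotated junction, with an acceptor at 4576047, bounds an exon of 86 bases with that donor, of which 52 lie in the annotated first intron and 34 in E010. Unlike E010, its length is not a multiple of 3. No junction from the first exon to the annotated start of E010 was among the junctions tested. Which start was used together with the annotated donor was not tested. Of the junction counts into the third exon, at 4575835, the unannotated donor held 1.72%, 10.2% and 6.02% in prmt5 and 70.5%, 75.4% and 64.8% in WT. It was the main choice in every WT library and the rarest in every prmt5 library. The annotated donor held 8.62%, 13.6% and 15.7% in prmt5 and 21.6%, 21.1% and 23.1% in WT. Skipping of the exon held 89.7%, 76.3% and 78.3% in prmt5 and 7.95%, 3.51% and 12.0% in WT.

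The skipped form was thus the main one in prmt5. Among junctions into the third exon it averaged 81.4% ± 7.21 in prmt5 and 7.83% ± 4.27 in WT (SD, n = 3 each). The counts behind this are small, with 52, 45 and 65 skipping counts in prmt5 and 7, 2 and 13 in WT. The unannotated donor had 1, 6 and 5 counts in prmt5 and 62, 43 and 70 in WT. In the junction choice test the skipping junction rose by 3.41 (SE 0.35) and the unannotated donor fell by 3.32 (SE 0.40) on the log2 scale. The annotated donor, at −0.58, did not pass. The unannotated acceptor, with 8, 0 and 3 counts in prmt5 and 24, 7 and 22 in WT, passed at −1.68 (SE 0.52) but was lost in 6 of 9 alternatives, with an edgeR adjusted p of up to 0.297. In each WT library this acceptor had fewer counts than the unannotated donor, and the reason was not tested. Among the tested junctions out of the first exon, skipping would thus be a larger share in WT than among those into the third.

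The exon and intron bins around it gave the same picture in part. The bin E010 had 58, 56 and 69 counts in prmt5 and 127, 92 and 150 in WT, and its usage fell by 1.00 (SE 0.15). That call was lost with the replicate block and with 5 of the 6 libraries left out in turn, with an edgeR adjusted p of up to 0.301. The first intron, which holds the 52 bases upstream, had 118, 115 and 140 counts in prmt5 and 252, 148 and 255 in WT (log2 change −0.79, SE 0.14).

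**Figure D2:**
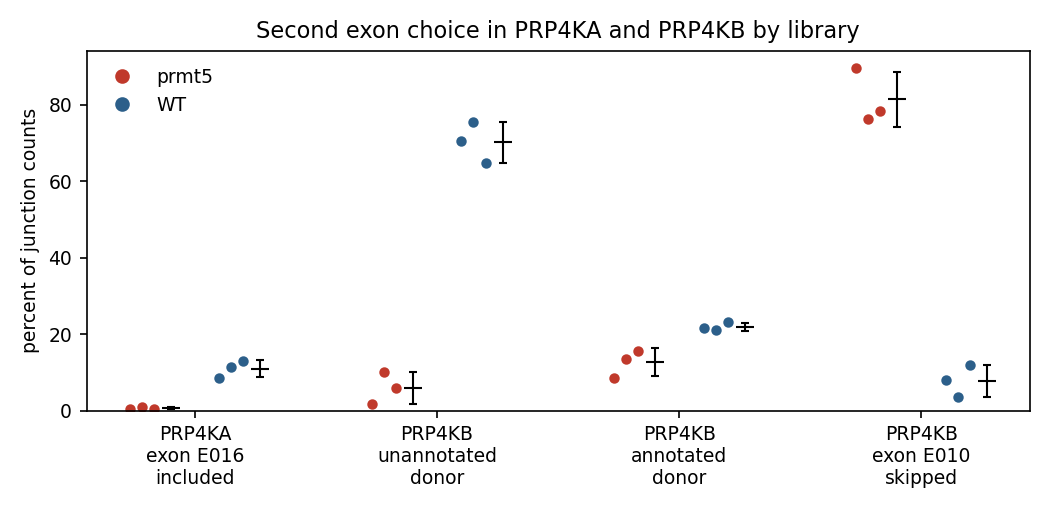
Choice of the second exon in PRP4KA and PRP4KB, in percent of junction counts, with 1 point for each library, prmt5 left of WT, and the mean with its SD (n = 3 each). The PRP4KA share uses junctions on both sides of the exon, and the PRP4KB shares use only junctions into the third exon. PRP4KA exon E016 is included at 1.0% or less in prmt5. On its base, skipping of PRP4KB exon E010 lies at 76.3% or more in prmt5 and at 12.0% or less in WT.

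Over the whole table, 24 junctions of the kinases could be tested, of which 4 were raised and 6 lowered. Over all tested junctions 3.21% were raised and 2.69% lowered, and nothing is read from the difference since the same contrast chose the genes. SRPK4 had no junction in the test. A further junction of PRP4KA that fell uses a donor 4 bases inside intron 7, at 9454344 on chromosome 3, and is absent from the deposited annotation. It had 0, 0 and 1 counts in prmt5 and 11, 7 and 19 in WT, a log2 change of −5.05 (SE 0.79). That size rests on the 1 count in prmt5, and without prmt5 replicate 3 it was −6.81. The annotated donor of that intron had 166, 108 and 238 counts in prmt5 and 135, 77 and 172 in WT. The alternative donor was thus a small share of the junction reads in WT and close to absent in prmt5.

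PRP4KA also differed at its other end. In WT the transcript ran on through 3 introns of the 3′ UTR. In prmt5 those introns were rarely spliced and the exon bins behind them were almost empty. The last 500 exonic bases held 3.94%, 3.08% and 2.96% of exon bin counts in prmt5 and 9.63%, 12.5% and 11.1% in WT. The groups lay far apart. This 3′ end share fell by 1.73 on the log2 scale (SE 0.14), and it passed under all 11 alternatives. Of all genes tested, 0.0388% passed as lowered.

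At the 3′ end of the other kinases the differences were small. The log2 changes were −0.06 (SE 0.10) in PRP4KB, −0.08 (SE 0.13) in AFC1, −0.05 (SE 0.08) in AFC2, −0.11 (SE 0.09) in AFC3 and −0.07 (SE 0.11) in SRPK4, and none passed. In AFC2, for example, the share was 37.7%, 34.8% and 36.2% in prmt5 and 36.4%, 38.9% and 37.5% in WT. WT replicate 2 had the highest 3′ end share of the WT libraries in all 6 genes.

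Bin by bin, the 3 distal bins of the PRP4KA 3′ UTR fell and the bin before them did not. The last bin, E001, had 24, 16 and 31 counts in prmt5 and 194, 165 and 309 in WT (log2 change of usage −3.49, SE 0.22). E002 had 24, 8 and 31 counts in prmt5 and 162, 126 and 201 in WT (−3.23, SE 0.24), and E003 had 29, 19 and 45 in prmt5 and 281, 177 and 302 in WT (−3.29, SE 0.14). E004, which lies inside intron 12 and belongs to the RefSeq transcript that ends there, had 196, 128 and 184 counts in prmt5 and 73, 54 and 64 in WT. Its usage change of 1.17 (SE 0.20) did not pass among exon bins, although the groups did not overlap. Set against each other, there were 0.393, 0.336 and 0.582 counts of E001 to E003 per count of E004 in prmt5 and 8.73, 8.67 and 12.7 in WT.

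Spliced reads gave the same contrast. Intron 12 was spliced in 17, 11 and 23 counts in prmt5 and in 177, 115 and 183 counts in WT. The last junction within the coding region, of intron 11, had 138, 94 and 155 counts in prmt5 and 134, 95 and 143 in WT. Per 100 counts of that coding junction, intron 12 thus had 12.3, 11.7 and 14.8 in prmt5 and 132.1, 121.1 and 128.0 in WT. The counts of the coding junction were similar before any scaling to library size. Relative to that junction, the step to the next exon was taken far less often in prmt5. Introns 13 and 14 had 7.51 ± 4.72 and 8.8 ± 1.9 counts per 100 in prmt5 and 75.4 ± 4.08 and 82.5 ± 12.2 in WT (SD, n = 3 each).

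Intron reads followed. Intron 12 of PRP4KA, whose donor attGTaaga scored 4.46, above 12.3% of annotated junctions, had 199, 132 and 191 counts in prmt5 and 77, 56 and 67 in WT (log2 change of usage 1.13, SE 0.18). Intron 13, past the point where the reads drop, had 12, 17 and 22 counts in prmt5 and 115, 51 and 137 in WT (−2.77, SE 0.24). Intron 14 had too few counts to be tested, with 0, 0 and 1 in prmt5 and 10, 9 and 7 in WT.

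All of these 3′ UTR features lie in a duplicated stretch. The 8266 bases of chromosome 3 from 9444591 to 9452856 recur from 9436328 to 9444593 with 2 mismatches, and they take in E001 to E004, introns 12 to 14 and 75 of the 400 bases of E005. Reads that lie wholly inside it cannot be assigned to one copy by their sequence, apart from the mismatches, and how the authors' counting treated them is not given in the sources used here. The copies of the 3 junctions had at most 1 count in any library. The stretch and its copy each carry a 1,8-cineole synthase gene, AT3G25830 and AT3G25820. AT3G25820 had 6462, 5337 and 9832 counts in prmt5 and 11078, 9188 and 11464 in WT. Counts of AT3G25830 were nearly the same, at 6444, 5321 and 9770 in prmt5 and 11014, 9136 and 11388 in WT. The pseudogene AT3G25826, mostly in the stretch, had 54, 36 and 58 counts in prmt5 and 30, 15 and 26 in WT. Their part in the PRP4KA values was not tested. The level of PRP4KA passed without the bins of the stretch too, with a log2 change of 0.46 (edgeR adjusted p = 0.000805). With those outside bins as the base all 4 intron calls of PRP4KA held. Only the base was changed there, and the counts of introns 12 and 13 still came from inside the stretch. For these introns the check therefore cannot show what part reads of the copy had.

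**Figure D3:**
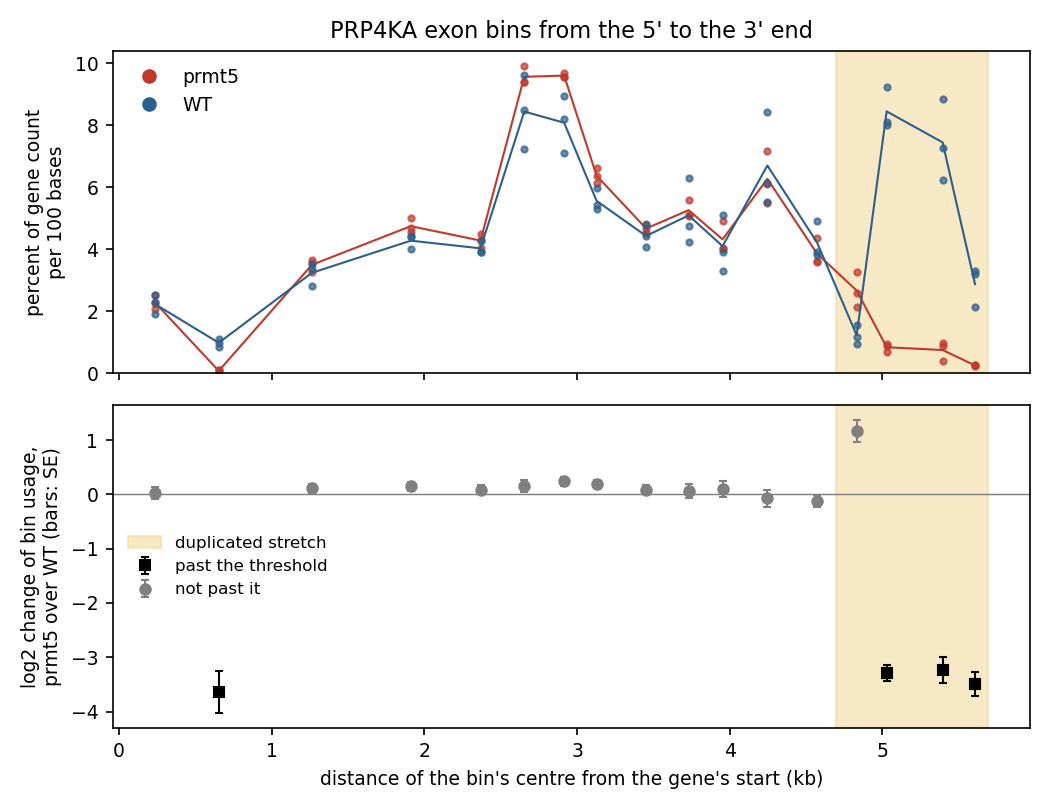
Exon bins of PRP4KA by distance from the gene's start in kilobases. The upper panel gives the count of each bin in percent of the gene count per 100 bases, with points for libraries and lines through the means of prmt5 and WT, and the lower panel gives the log2 change of bin usage, prmt5 over WT, with SE bars. Black squares passed the threshold, and the shaded part is the duplicated stretch. Exon E016 near the start and the 3 distal bins fall below −3, while the bins from E016 to the shaded part lie near 0.

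Of 82 exon bins of the kinases, 76 could be tested, 0 were raised and 5 were lowered, namely the 4 of PRP4KA and E010 of PRP4KB given above. Over all tested bins 0.0749% were raised and 0.0456% lowered. In the other genes the bin with the smallest p was E011 in AFC1 with a log2 change of −0.28, E004 in AFC2 with −0.17, E015 in AFC3 with 1.52 (SE 0.45) and E003 in SRPK4 with 0.15, and none passed. The groups did not overlap in E015 of AFC3 or E011 of AFC1.

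Intron reads were higher in prmt5 in the LAMMER kinases. A read can be counted in several introns or bins, so the sums below are not shares of the reads of a gene. As a percent of the gene count, the introns of AFC2 that overlap no exon bin held in sum 27.4%, 28.4% and 24.8% in prmt5 and 11.8%, 12.4% and 12.4% in WT. Those of AFC1 held 9.22%, 10.9% and 10.5% in prmt5 and 5.43%, 5.7% and 5.8% in WT. Those of AFC3 held 25.9%, 27.5% and 24.5% in prmt5 and 15.5%, 17.6% and 15.2% in WT. In all 3 AFC genes every prmt5 library lay above every WT library, with ratios of the means of 2.2 in AFC2, 1.81 in AFC1 and 1.61 in AFC3.

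In the PRP4 kinases the sums depended on which introns were taken. In PRP4KA the summed introns held 1.8%, 1.5% and 1.94% in prmt5 and 4.33%, 3.51% and 4.61% in WT. In PRP4KB they held 10.1%, 11.3% and 8.84% in prmt5 and 11.6%, 10.7% and 11% in WT. PRP4KA was lower in prmt5 with no overlap, where the sum leaves out intron 12 since E004 overlaps it, and the PRP4KB libraries overlapped. The PRP4KB sum is mostly intron 1, which holds part of the unannotated exon. Its other introns held 4.91%, 4.91% and 4.12% of the gene count in prmt5 and 1.86%, 1.76% and 1.95% in WT. Those were higher in every prmt5 library, with a ratio of the means of 2.5. Within the coding region alone, the PRP4KA introns held 1.5%, 0.991% and 1.48% in prmt5 and 1.51%, 1.34% and 1.44% in WT, which overlap.

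Of the 64 introns and retained intron bins of the 6 genes, 44 had enough counts for the test of intron usage, which sets each intron count against the count of its gene. Of these, 21 were raised in prmt5, 4 were lowered and 19 did not pass. Over all tested introns 21.6% were raised and 0.518% were lowered, and the median log2 change was 0.37, beside 0.69 over the 44. Since intron values of this contrast were among those that chose the genes, the shares are set side by side only. By gene, 8 of 11 tested introns of AFC2, 5 of 9 of AFC3, 4 of 10 of AFC1, 3 of 5 of PRP4KB and 1 of 9 of PRP4KA were raised. The raised intron of PRP4KA is intron 12, whose counts are nearly those of exon bin E004 inside it. No AFC intron was lowered, against 3 in PRP4KA and 1 in PRP4KB. None of the 3 introns of SRPK4 had enough counts, and their sum stood at 1.38%, 1.2% and 1.29% of the gene count in prmt5 and 0.905%, 0.825% and 1.09% in WT.

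Some of the raised introns lie at the same place in the 3 AFC genes, with a 5′ splice site that is the same or nearly so. Only intron 6 was raised in all 3, and its AFC3 donor is not identical to the others. At the matched intron 9, where the donors of the 3 genes differ, only AFC2 passed. At the matched intron 4, between exons of 154 and 49 bases, AFC2 (donor tcgGTaagt) was raised, as given below. AFC1 (donor tcgGTaaga) did not pass there, with a log2 change of 0.26 (SE 0.44), and AFC3 had too few counts to be tested. Introns at the same place in the 3 genes were matched by the lengths of the exons on both sides. The 9 bases of their donors are printed with GT in capitals, so that the paralogs can be compared. The first matched intron lies between exons of 115 and 92 bases.

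AFC1 intron 6 donor: catGTgtgt
AFC2 intron 6 donor: catGTgtgt
AFC3 intron 6 donor: catGTctgt

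The site catGTgtgt scored 5.61, above 25.1% of annotated junctions, and catGTctgt scored 4.2, above 10.2%. Intron 6 was raised in all 3 genes. In AFC1 it had 56, 56 and 66 counts in prmt5 and 15, 10 and 10 in WT (log2 change 1.98, SE 0.29). In AFC2 it had 256, 179 and 243 counts in prmt5 and 51, 16 and 73 in WT (1.80, SE 0.19). In AFC3 it had 147, 120 and 132 counts in prmt5 and 60, 47 and 49 in WT (0.96, SE 0.19). No prmt5 library overlapped with WT in any of these introns. In percent of the gene count, AFC2 intron 6 averaged 5.16% ± 0.584 in prmt5 and 1.39% ± 0.562 in WT (SD, n = 3 each).

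The neighbouring intron 5, between exons of 49 and 115 bases, has the same donor in all 3 genes.

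AFC1, AFC2 and AFC3 intron 5 donor: attGTaagt

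This site scored 5.62, above 25.6% of annotated junctions. With the same 9 bases, intron 5 was raised in AFC2, at 119, 97 and 130 counts in prmt5 and 25, 29 and 27 in WT (log2 change 1.56, SE 0.22). In AFC3 it lay just inside the threshold, at 140, 100 and 175 counts in prmt5 and 92, 52 and 87 in WT (0.45, SE 0.17, edgeR adjusted p = 0.0438), and the call was lost in 8 of 12 alternatives, with adjusted p of up to 0.215. In AFC1 it lay just outside, at 0.71 (SE 0.28, edgeR adjusted p = 0.0619). Whether the 3 changes differ from each other was not tested.

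Intron 3, between exons of 27 and 154 bases, was raised in AFC2 with 26, 37 and 23 counts in prmt5 and 6, 2 and 7 in WT (log2 change 2.04, SE 0.43). It was raised in AFC3 with 285, 239 and 263 counts in prmt5 and 130, 85 and 152 in WT (0.73, SE 0.14), where it averaged 9.64% ± 1.15 of the gene count in prmt5 and 5.77% ± 0.107 in WT. In AFC1 the log2 change of −0.34 (SE 0.60) did not pass. The AFC1 donor aagGTtagt differs from the AFC3 donor aagGTtagc in the last base only, and AFC2 has aagGTatga. Intron 3 thus had among the highest intron counts of AFC3 in both genotypes. An unannotated donor inside it, at 15757039, had 9, 10 and 9 junction counts in prmt5 and 14, 2 and 6 in WT. The log2 change of that junction, 1.39 (SE 0.49), did not pass. How many of the intron reads came from that donor was not tested.

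The other raised introns of AFC2 were intron 2, whose donor gctGTaatc scored 2.48, with 252, 180 and 256 counts in prmt5 and 49, 52 and 61 in WT (log2 change 1.55, SE 0.17), and intron 1, the longest at 617 bases, with 242, 227 and 263 in prmt5 and 128, 61 and 108 in WT (0.81, SE 0.15). Intron 4 had 68, 49 and 79 counts in prmt5 and 14, 16 and 27 in WT (1.25, SE 0.26). All introns from 1 to 6 of AFC2 were thus raised, with no overlap of the groups. Toward the 3′ end, introns 9 and 10 were raised by 0.74 (SE 0.20) and 0.70 (SE 0.20), and both calls were lost without WT replicate 1 (log2 changes 0.58 and 0.56, edgeR adjusted p = 0.0639 and 0.0834). Introns 7, 8 and 11 of AFC2 did not pass.

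In AFC1 the retained intron bin in the 5′ UTR, E016 of that gene, had 183, 135 and 204 counts in prmt5 and 92, 46 and 73 in WT (log2 change 0.95, SE 0.16), which is 9.39% ± 0.675 of the gene count in prmt5 and 4.87% ± 0.731 in WT. It was the largest intronic part of AFC1 in both genotypes. Intron 1 had 27, 16 and 50 counts in prmt5 and 13, 2 and 7 in WT (1.69, SE 0.39). Intron 10, with 15, 2 and 14 counts in prmt5 and 0, 1 and 3 in WT, passed at 2.47 (SE 0.76), but its groups overlapped. That call was lost with DESeq2 and without WT replicate 1, prmt5 replicate 1 or prmt5 replicate 3, with adjusted p of up to 0.115 over edgeR and DESeq2.

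In AFC3 intron 7 had 116, 82 and 101 counts in prmt5 and 27, 46 and 46 in WT (log2 change 0.92, SE 0.22). An intron of 73 bases in its 3′ UTR had 18, 27 and 25 counts in prmt5 and 9, 5 and 8 in WT (1.30, SE 0.39). The second of these calls was lost with DESeq2 and without WT replicate 3 or prmt5 replicate 2, with adjusted p of up to 0.105. The retained intron bin in the 5′ UTR of AFC3, at −0.07 (SE 0.13), did not pass.

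In the PRP4 kinases, intron 2 of PRP4KB, just behind the exon that was skipped in prmt5, had 46, 36 and 38 counts in prmt5 and 2, 7 and 15 in WT (log2 change 2.33, SE 0.37). Intron 7 had 17, 9 and 21 counts in prmt5 and 2, 0 and 5 in WT (2.69, SE 0.56), and an intron of 335 bases upstream of it had 36, 26 and 42 in prmt5 and 13, 12 and 13 in WT (1.43, SE 0.31). All were raised with no overlap. The intron of 335 bases does not have these bounds in the RefSeq transcript with the longest coding region. Whether its reads came from retention or from another splice site was not tested. In PRP4KA, intron 7 was lowered, with 5, 1 and 11 counts in prmt5 and 18, 12 and 24 in WT (−1.92, SE 0.45). It is the intron whose alternative donor was nearly absent in prmt5. Reads spliced at that donor hold the first bases of the intron, and their part in its counts was not tested.

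**Figure D4:**
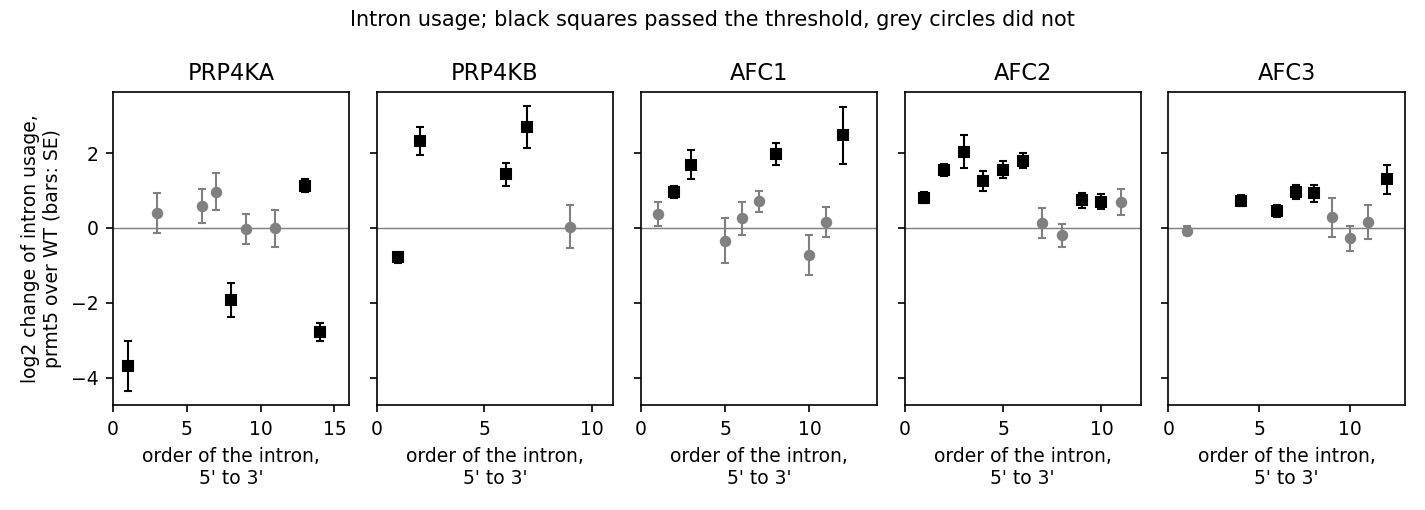
Log2 change of intron usage, prmt5 over WT, with SE bars, for the tested introns of 5 kinase genes in their order from 5′ to 3′, counted over all introns and retained intron bins of the deposited tables. Black squares passed the threshold and grey circles did not. All squares of AFC1, AFC2 and AFC3 lie above 0, while PRP4KA has 3 below 0 and PRP4KB has 1.

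Among tested introns that overlap no exon bin, which leaves out intron 12 of PRP4KA, the raised ones had a median donor score of 5.7 (n = 20), those that did not pass one of 7.35 (n = 18), and the lowered ones one of 6.11 (n = 4). All annotated junctions had a median of 7.04. Of the raised introns, 13 of 20 scored below that overall median, against 8 of 18 that did not pass and 4 of 4 that were lowered. The ranges overlapped widely, from 2.48 to 9.21 for raised introns and from 4.36 to 9.36 for those that did not pass, and the introns share genes, so this is a description. Median lengths were 132 bases for raised introns, 93 for those that did not pass and 201.5 for the lowered ones. Of the 21 raised introns, 18 lie in the coding region, and in 17 of those retention brings a stop codon into the reading frame. The exception is intron 7 of PRP4KB, whose 172 bases are not a multiple of 3, and stops behind it were not searched for. The other 3 raised introns lie in UTRs. An in-frame stop is not particular to raised introns, since nearly all introns in the coding region of these genes have one.

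Junction counts also gave the shares in which 4 exons or exon pairs of the AFC genes were skipped. AFC2 exon E012, of 190 bases, was skipped in 47.8%, 43.7% and 47.1% of its junction reads in prmt5 and in 25%, 26.1% and 19.6% in WT. The groups were well apart, with means of 46.2% ± 2.19 in prmt5 and 23.5% ± 3.5 in WT (SD, n = 3 each). The junction that skips E012, from 12756566 to 12757552 on chromosome 4, had 70, 64 and 100 counts in prmt5 and 42, 24 and 35 in WT, and rose by 1.18 (SE 0.21). That call held in all 10 alternatives. The junction that includes its downstream side, with 56, 71 and 76 counts in prmt5 and 108, 68 and 137 in WT, fell by 0.62 (SE 0.18). It was lost in 4 of 10 alternatives, with an edgeR adjusted p of up to 0.213.

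The exons between introns 4 and 6 flank the donors printed above. There, all 3 AFC genes showed a skipped form absent from the deposited annotation. That of AFC2 is in 2 RefSeq transcripts. In AFC2 exons E008 and E009, 164 bases together, were skipped in 18.9%, 22.9% and 37.2% in prmt5 and in 15.4%, 13.2% and 16.6% in WT. The prmt5 libraries were above those of WT, and prmt5 replicate 3 stood far above the rest. The junction had 33, 38 and 95 counts in prmt5 and 29, 13 and 35 in WT and passed at 0.90 (SE 0.26). Without prmt5 replicate 3 the log2 change was 0.48 (edgeR adjusted p = 0.75), and the call was lost in 5 of 9 alternatives. The junction of intron 6 that includes E008, with 96, 91 and 101 counts in prmt5 and 152, 81 and 150 in WT, passed at −0.57 (SE 0.18), and was lost in 8 of 9 alternatives, with an edgeR adjusted p of up to 0.268.

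The matching exons of AFC1, E009 and E010, also 164 bases together, were skipped in 9.88%, 7.87% and 11.5% in prmt5 and in 5.0%, 2.47% and 0.889% in WT. The groups did not overlap, but the skipping junction had only 8, 5 and 12 counts in prmt5 and 5, 1 and 1 in WT. Its log2 change of 1.80 (SE 0.60) did not pass (edgeR adjusted p = 0.0732). In AFC3 the exon of 115 bases, E009, was skipped alone, in 16.2%, 14.2% and 14.4% in prmt5 and in 6.78%, 8.7% and 3.15% in WT. The groups did not overlap. Its junction, with 21, 15 and 20 counts in prmt5 and 8, 6 and 4 in WT, passed at 1.40 (SE 0.40). It was lost in 5 of 9 alternatives, each of which left out 1 library, with an edgeR adjusted p of up to 0.372 without WT replicate 3. None of these lengths, of 190, 164 and 115 bases, is a multiple of 3.

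**Figure D5:**
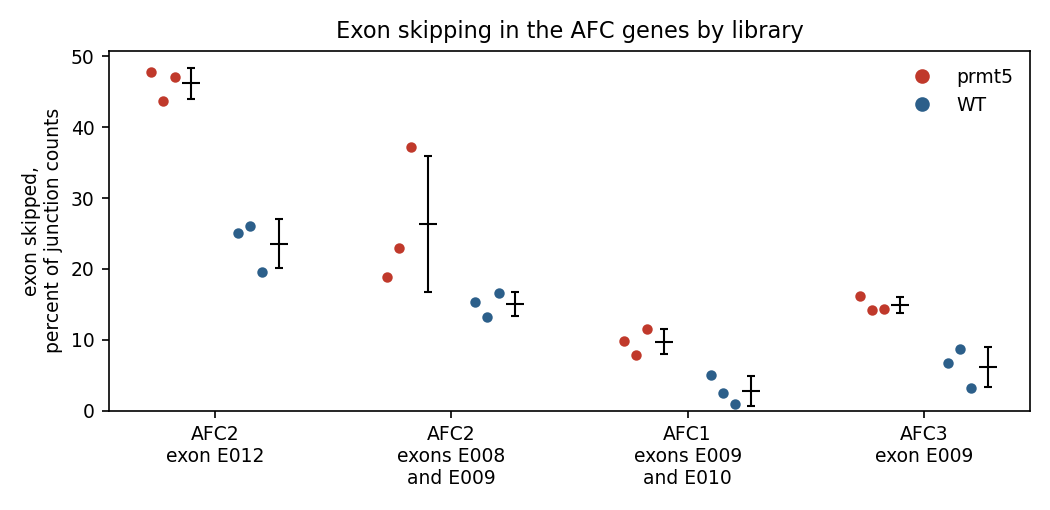
Share of junction counts that skip an exon or a pair of exons in the AFC genes, in percent, with 1 point for each library, prmt5 left of WT, and the mean with its SD (n = 3 each). The prmt5 points lie above the WT points in each of the 4 cases, and the third prmt5 library, at 37.2%, widens the spread for AFC2 exons E008 and E009.

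Genes that the kinases are known to act on or with were read from the same gene-level fit. Of the 19 SR protein genes, 8 were higher in prmt5, 1 was lower and 10 did not pass, with a median log2 change of 0.20 beside 0.01 over all genes. Over all tested genes 17.9% were higher and 15.4% lower. SR34a had 125.6, 110.0 and 111.1 CPM in prmt5 and 60.0, 60.6 and 59.9 CPM in WT, and rose by 0.94 (SE 0.07, edgeR adjusted p = 4.07e-06). RS31a rose by 0.67 (SE 0.12, adjusted p = 0.00135), in a place where AT2G46600 overlaps, and RS31 by 0.59 (SE 0.06, adjusted p = 5.28e-05). RS2Z33, overlapped by AT2G37330, fell by 0.20 (SE 0.06, adjusted p = 0.0271). No SR gene passed as lower with the replicate number as a block, or without WT replicate 3, prmt5 replicate 1 or prmt5 replicate 2. The SR genes had 113 tested introns, of which 19 were raised and 1 lowered, with a median log2 change of 0.31. Over all tested introns 21.6% were raised and 0.518% lowered, with a median of 0.37.

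Of 12 genes for proteins of the tri-snRNP or tied to it, on which PRP4 kinases act in yeast and mammals, 7 were higher and 0 lower, with a median of 0.23, beside 17.9% higher and 15.4% lower over all tested genes. The count depended on single libraries, with 2 without prmt5 replicate 3, 3 without prmt5 replicate 2, and 4 without WT replicate 2 or WT replicate 3. AT4G38780, a PRP8 gene, had 7.61, 6.83 and 8.53 CPM in prmt5 and 2.92, 2.81 and 2.62 CPM in WT, and rose by 1.46 (SE 0.12, edgeR adjusted p = 1.15e-05). STA1, the PRP6 homolog, rose by 0.45 (SE 0.06, adjusted p = 0.000396) and BRR2A, an RNA helicase, by 0.32 (SE 0.09, adjusted p = 0.02). Of their 55 tested introns, 5 were raised and 0 lowered, beside 21.6% raised and 0.518% lowered over all tested introns.

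Of 9 other kinase and cyclin genes listed for effects on splicing, 3 were higher and 0 lower, with a median of 0.14, beside 17.9% higher and 15.4% lower over all tested genes. The count was 2 in 10 of 12 alternatives. CDKC;1, a cyclin-dependent kinase, had 23.7, 24.8 and 24.8 CPM in prmt5 and 17.3, 17.1 and 17.7 CPM in WT, and rose by 0.49 (SE 0.06, edgeR adjusted p = 0.000176). AT5G22840, overlapped by AT5G22830, rose by 0.31 (SE 0.07, adjusted p = 0.00592) and AT4G35500 by 0.31 (SE 0.11, adjusted p = 0.0461). The other 6 did not pass. Of their 29 tested introns, 7 were raised and 1 was lowered, again beside 21.6% and 0.518%.

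The genes whose CPM profile over the 6 libraries was most like that of each kinase were named by Pearson's r, as a description of libraries that fall into the 2 genotypes. They were AT3G05130 (r = 0.9979) for PRP4KA, GRP23 (0.9984) for PRP4KB, BIGYIN (0.999) for AFC1, BSK4 (0.9999) for AFC2, AT5G67610 (0.9966) for AFC3 and LCB2 (0.9991) for SRPK4. With 6 libraries such values are common. Of the 22508 other genes, r was over 0.95 for 1583 with AFC2, 1503 with AFC1, 863 with PRP4KA, 665 with AFC3, 199 with PRP4KB and 156 with SRPK4. The genes that were higher in prmt5 had many genes of like profile, and PRP4KB and SRPK4, which did not pass, had few.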

How the data were processed

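The deposited tables hold raw read counts per gene, exon bin, intron and splice junction in 6 libraries, whole numbers that the authors did not normalize. Per the submitters' processing notes, STAR and the TAIR10 genome were used; the sources used here do not state the counting program, read length or strand setting. Sample titles gave the groups and replicate numbers. The 6 genes and the other lists were chosen with earlier results of these data known. Coordinates are those of the deposited tables, and sequences were read from TAIR10.1, where 98.5% of 110931 annotated junctions were flanked by GT and AG. Intron numbers and regions come from RefSeq.

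The main test was the quasi-likelihood F test of edgeR 4.0.16 under R 4.3.3 on gene counts (TMM, default expression filter, robust fit, term for genotype alone). Benjamini-Hochberg adjustment ran over each whole table, and adjusted p under 0.05, two-sided, was the threshold. CPM uses TMM library sizes. SE is the size of the log2 change over the root of F. Intron and exon bin counts (mean of at least 5) were fitted with the log of the gene count plus 0.5 as offset, introns only where the gene averaged 50 counts or more. The 3′ end share used the exon bins of the last 500 exonic bases. It was tested in genes of over 1000 exonic bases against their summed exon bin count. Junctions averaging 5 counts or more and sharing a donor or acceptor were tested with diffSpliceDGE. For original introns that overlap other bins, 5547 entries were left out.

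Named were all 6 genes, every intron, bin, 3′ end or junction of theirs that passed (at most 8 a gene and kind), the smallest p where none passed, and the 3 largest changes each way of a list. Ratios of junctions were added as descriptions. All scripts with tests were tested on simulated counts. Alternatives used DESeq2 1.42.0, limma 3.58.1, other scalings, filters, offsets and windows, the replicate number as a block, and each library left out in turn. Libraries of a genotype differed beyond sampling noise (chi-square per degree of freedom 12.7 to 31.9). Reads carry no molecular identifiers.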

Additional observations from a re-analysis of the deposited data

How the results depend on the processing

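The 47 named results were compared with their alternatives 532 times. Of these, 476 kept direction and side of the threshold, 55 lost the call, 1 gained it (SRPK4 without WT replicate 2) and 0 reversed. The count of kinase genes past the threshold was 4 and ran from 4 to 5 with 1 library left out. That of kinase introns was 25, with 22 to 24 with 1 library left out and 22 to 26 over all alternatives. The 5 exon bin calls became 3 with the replicate block and 3 to 6 with 1 library left out, with 3 without WT replicate 3, prmt5 replicate 2 or prmt5 replicate 3. The 10 junction calls became 5 with annotated junctions only, by construction with fewer junctions tested, 6 with the replicate block, and 5 to 8 with 1 library left out, with 5 without WT replicate 3 or prmt5 replicate 3. The 7 tri-snRNP calls became 3 with the replicate block and 2 to 7 with 1 library left out. Apart from the annotated junctions, the cause was not tested. The SR protein count of 9 became 8 with the block and 7 to 10 with 1 library left out. That of the other kinases, 3, became 2 with DESeq2, RLE or upper quartile scaling, limma-voom or the block, and 2 to 3 with 1 library left out. The 3′ end count stayed at 1 throughout.

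Libraries with the same replicate number did not deviate together (correlations of −0.111, −0.141 and −0.0628), so the numbers were not taken as a pairing and calls lost under the block are not read as weaker effects. Depth limits SRPK4, whose introns had too few counts, and the rare junctions of AFC1 and PRP4KB. Reads of the PRP4KA 3′ UTR are limited by the second copy of that stretch. Tests of exon bins and 3′ ends were conservative, with 3.63% and 2.29% of all features under an unadjusted p of 0.05.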
